A study of Mus musculus with 6 samples.

Results

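Cyclins, the cyclin-dependent kinases (CDKs) they activate and the proteins that restrain or license these kinases were followed in NIH3T3 mouse fibroblasts with and without forskolin. The members were a list of 47 gene symbols, chosen with earlier results of these data known. A member counted as measured where the array annotation paired a probe set with that symbol alone. Of the 47 genes, 39 were measured, among 16797 genes tested in all. Ccnd3, Cdk6, Cdkn1a, Cdkn1b, Cdkn2c, Ccnl1, Cdk8 and Cdk14 had no probe set of this kind and were not analysed here.

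The CDKs that drive the cell cycle are inactive without a cyclin, and the succession of cyclins sets the order of the cycle. D-type cyclins with Cdk4 or Cdk6 inactivate the retinoblastoma proteins, E-type cyclins with Cdk2 start DNA replication, and A- and B-type cyclins with Cdk2 or Cdk1 carry cells through S phase and into mitosis. Wee1 and Pkmyt1 hold Cdk1 in check by phosphorylation, Cdc25 phosphatases remove that phosphate, and the INK4 and CIP/KIP inhibitors bind the kinases directly. Other cyclins and CDKs serve transcription rather than division. In fibroblasts, growth factors and adhesion feed into this system mainly through the D-type cyclins, and cyclic AMP is a classical modulator of it.

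RNA was measured on 6 Affymetrix gene arrays, 3 of NF and 3 of N. Both groups were the same immortalized line of embryonic fibroblast origin, called Normal cells by the study, and carried no introduced oncogene. The cells were plated in 25 mM glucose, moved after 16 h to 1 mM glucose, and harvested at 72 h. NF cells were given 10 μM forskolin (FSK), which activates adenylate cyclase and so protein kinase A, at 24 h and at 48 h, while N cells received none and, per the study's workflow, its DMSO vehicle. Each group's 3 arrays carry the words biological replicate in their titles, and their p-values measure the spread between these samples. How separately the cultures were kept is not stated. Transformed cells of the study were not analysed here.

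The values were log2 expression from RMA, and a change is the NF mean minus the N mean, so that 1 log2 unit is a 2-fold difference. The fibroblast identity was checked first. Vim lay between 12.26 and 12.36 in NF and between 12.12 and 12.35 in N, whereas 7 epithelial markers did not exceed 4.12 in NF and 4.25 in N and 5 endothelial markers did not exceed 3.36 in NF and 3.46 in N. Of 8 fibroblast markers measured, Col3a1, a collagen gene, was higher in NF (6.99, 6.47 and 7.12 in NF and 5.43, 5.67 and 5.50 in N, log2 change 1.33, adjusted p = 0.0157, limma), and 7 did not pass. Thy1, a surface marker, was at 7.76, 7.68 and 7.88 in NF and 5.95, 7.39 and 7.04 in N (log2 change 0.98, adjusted p = 0.227, limma). Summed up as the mean of the 8 markers, the arrays lay between 8.53 and 8.77 in NF and between 7.94 and 8.51 in N. Lum, a fibroblast matrix gene, was low (2.21 to 2.44 in NF and 2.42 to 2.68 in N), and Lyz2 was the 1 leukocyte marker of 5 above 3.54, at 6.34, 6.06 and 6.16 in NF and 4.07, 5.98 and 5.54 in N. The part of these markers in the results was not tested. N replicate 1 stood apart from the other N arrays. The SD of its values was 2.19, against 2.37 to 2.42 on the remaining arrays, and its 5189 probe sets of moderate expression (log2 5 to 8) lay by a median of -0.49 from the other N arrays. For the members, values without it are given where it ended a call, turned a direction or moved a change by over 1.5 times. Changes of markers and partners without it are not given.

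The direction of the labels was checked with a pair of phosphodiesterase genes that cyclic AMP is known to induce. Pde4d was 5.58, 5.36 and 5.16 in NF and 4.03, 3.81 and 3.56 in N, a log2 change of 1.57 (adjusted p = 0.00843, limma). Pde4b was 5.96, 5.20 and 6.13 in NF and 3.69, 4.29 and 3.54 in N, a log2 change of 1.92 (adjusted p = 0.0188, limma). No NF array overlapped an N array for either gene, which fits the array titles. By those titles the cell cycle genes below were higher in NF, whereas the text of the study describes cell cycle genes as repressed in this comparison. The study states that repression met its expectations, citing its earlier work on cell cycle inhibition and proliferation arrest in Normal cells given FSK. The reason for the difference was not tested.

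The promoters of 3 members that were higher in NF are shown because their periodic expression is classically tied to short elements next to the start. The capitals mark the cell cycle homology region (CHR, TTTGAA), which is read by the DREAM and MuvB complexes, and the CCAAT box (CCAAT, or ATTGG where it lies on the opposite strand), bound by NF-Y. Each stretch runs 5′ to 3′ on the gene's strand, from 250 bases before the RefSeq start to 20 bases after it in GRCm38.p6, at chr10:69352893-69353162 (minus strand) for Cdk1, chr9:70421535-70421804 (minus strand) for Ccnb2 and chr13:51644982-51645251 (plus strand) for Cks2.
Cdk1: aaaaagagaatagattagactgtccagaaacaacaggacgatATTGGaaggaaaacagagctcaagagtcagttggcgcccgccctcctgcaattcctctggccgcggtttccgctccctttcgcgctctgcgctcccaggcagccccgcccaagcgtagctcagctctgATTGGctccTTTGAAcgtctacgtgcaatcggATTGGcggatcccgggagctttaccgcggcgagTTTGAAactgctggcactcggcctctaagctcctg
Ccnb2: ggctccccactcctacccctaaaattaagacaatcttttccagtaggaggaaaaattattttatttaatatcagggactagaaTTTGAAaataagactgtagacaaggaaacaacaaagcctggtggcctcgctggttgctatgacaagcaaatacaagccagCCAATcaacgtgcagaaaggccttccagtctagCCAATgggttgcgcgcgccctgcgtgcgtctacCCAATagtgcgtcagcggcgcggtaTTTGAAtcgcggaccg
Cks2: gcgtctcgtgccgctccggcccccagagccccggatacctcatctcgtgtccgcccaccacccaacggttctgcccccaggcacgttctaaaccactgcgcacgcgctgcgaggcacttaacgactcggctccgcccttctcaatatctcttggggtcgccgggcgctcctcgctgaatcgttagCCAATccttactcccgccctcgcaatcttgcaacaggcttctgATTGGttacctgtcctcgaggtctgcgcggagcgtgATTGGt

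In Cdk1 the CHR letters began 71 and 15 bases before the start, beside CCAAT boxes on the opposite strand at 208, 80 and 48 bases before it. In Ccnb2 the CCAAT boxes lay 87, 54 and 21 bases before the start, spaced 33 and 33 bases apart, and CHR letters lay 167 bases before and 4 bases after it. Cks2 held CCAAT boxes 65 and 22 bases before and 14 bases after the start, and another 32 bases after it, beyond the stretch shown, with no CHR letters in its window. The whole windows, 300 bases long, were then searched on both strands for all genes with a RefSeq entry, and 28 measured members had 29 windows. CCAAT was found in 19 of the 29 (65.5%), against 37.4% of all 32851 windows. CHR was found in 7 (24.1%), against 17.9% of all windows. An E2F site (TTTCCCGC, TTTCGCGC or TTTGGCGC) was found in 3 (10.3%), against 1.84%. The cyclic AMP response element TGACGTCA was found in 1 (3.45%), against 1.79%, its short core TGACG, which every such element also holds, in 11 (37.9%), against 20.8%, and the FOXO site TGTTTAC in 1 (3.45%), against 3.65%. Of the 8 members higher in NF, 5 had a window (Cdk1, Ccnb2, Cks2, Ccne1 and Ccng2). Of these 5, CHR was present in 2, CCAAT in 3, an E2F site in 1, TGACG in 1, and the full cyclic AMP element and the FOXO site in 0. Ccne1 and Ccng2, which are not shown, held neither CHR nor CCAAT letters. The CCAAT share of these 5 (60%) was not above that of the measured members (65.5%). These matches describe letters only.

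Of the 39 measured members, 8 were higher in NF and 0 were lower at an adjusted p under 0.05 (limma, Benjamini-Hochberg over all probe sets tested). These were 20.5% of the members, beside 1.83% of all genes tested that were higher and 0.72% that were lower. At an unadjusted p under 0.05, 19 members were higher and 2 lower, beside 1400 and 922 of all 16797 genes. All NF arrays lay above all N arrays for 20 members (51.3%), beside 10.5% of all genes, and below them for 3 members (7.69%), beside 9.7% of all genes. The median log2 change was 0.33 over the members and -0.03 over all genes. With dim probe sets (mean under 3.7) left out, 8 of 35 members were higher. In that setting 359 (4.32%) of 8307 genes were higher and 148 lower. The median log2 change was then 0.40 over the members and 0.09 over all genes. The 8 genes were Cdk1, Ccna2, Ccnb2, Ccne1, Cks2, Wee1, Cdc25c and Ccng2. RNA of a whole culture cannot tell more cells in a phase of the cycle apart from more RNA of these genes per cell.

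The 8 calls were all kept without N replicate 1, where Cdc25b and Cdkn3 joined them and 2.93% of all genes were higher. Without NF replicate 1 or NF replicate 3 the count was 0, where 1 and 2 of all genes were higher. Without NF replicate 2 the count was 5 (0.899% of all genes), and Ccne1, Cdc25c and Cks2 were lost. Without N replicate 2 it was 6 (1.62% of all genes), and Cdc25c and Cks2 were lost. Without N replicate 3 it was 5 (0.625% of all genes), and Ccne1, Ccng2 and Cks2 were lost. The number of calls over all genes thus also changed with the array left out.

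**Figure D1:**
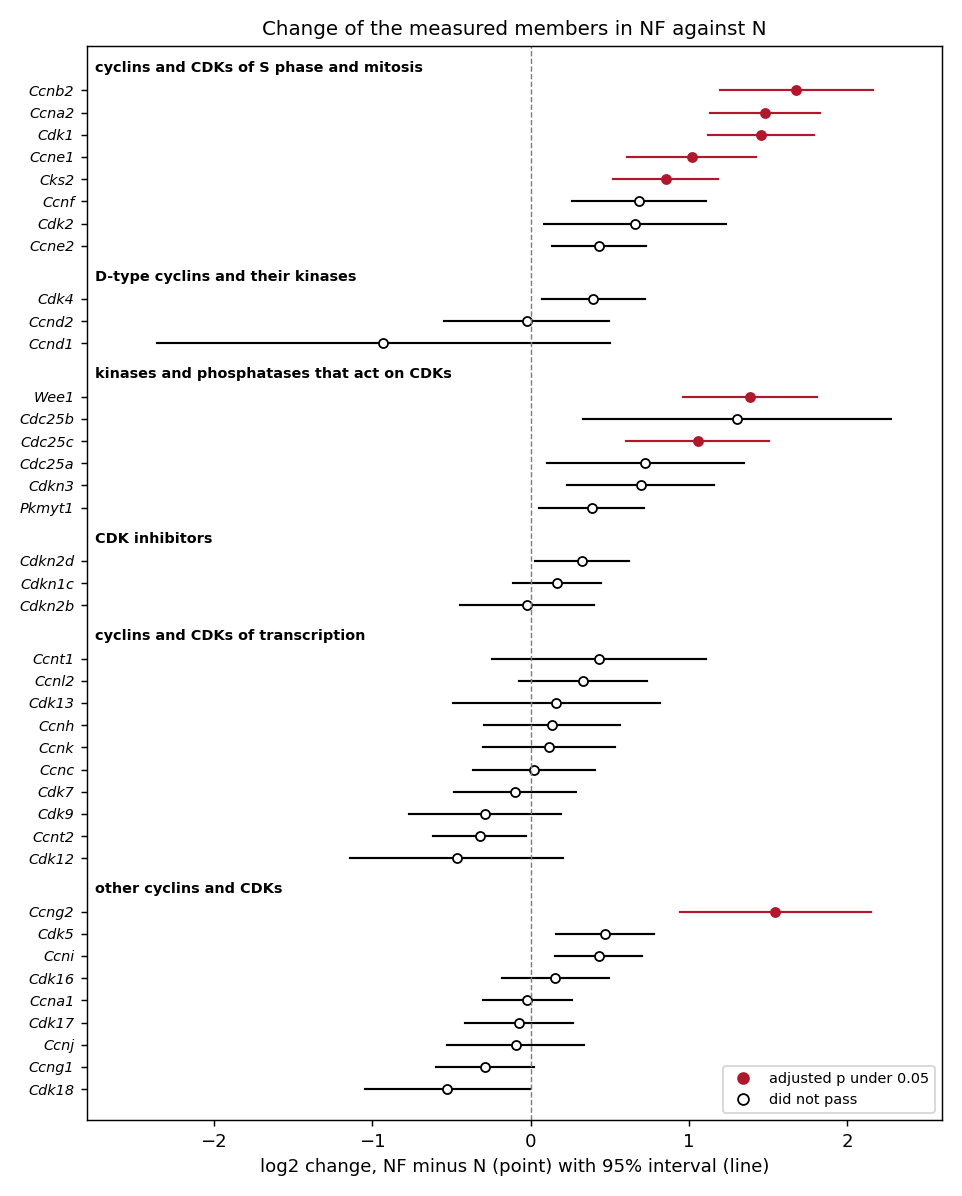
Log2 change (NF minus N, horizontal axis) of the 39 measured members, grouped by role, with points for the fitted change and lines for its 95% interval. Filled red points mark the 8 members with an adjusted p under 0.05 (limma), which all lie to the right of 0, most of them among the S phase and mitosis genes and the CDK kinases and phosphatases.

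The cyclins and CDKs of S phase and mitosis lay above N without exception. All 8 listed were measured, 5 were higher in NF, 0 were lower and 3 did not pass, and for all 8 every NF array lay above every N array. Their median log2 change was 0.94.

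Cdk1, the kinase that drives mitosis, measured 9.53, 9.19 and 9.21 in NF and 7.74, 7.97 and 7.83 in N. The lowest NF array exceeded the highest N array by more than the spread inside either group. The NF mean was 9.31 ± 0.19 and the N mean 7.85 ± 0.12 (SD, n = 3 each), a log2 change of 1.46 ± 0.14 (SE), or 2.74-fold (adjusted p = 0.00716, limma). Ccna2, the A-type cyclin of dividing somatic cells, measured 7.71, 7.48 and 7.44 in NF and 5.88, 6.27 and 6.05 in N. Its arrays separated as cleanly as those of Cdk1. The log2 change was 1.48 ± 0.15 (SE), or 2.78-fold (adjusted p = 0.00716, limma). Ccnb2, a B-type partner of Cdk1, measured 7.50, 7.26 and 7.64 in NF and 5.41, 6.18 and 5.78 in N. The N arrays were spread more widely than the NF arrays, with N replicate 1 the lowest. This was a log2 change of 1.68 ± 0.21 (SE), or 3.20-fold (adjusted p = 0.0116, limma), and the largest among the members.

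Ccne1, the E-type cyclin that activates Cdk2 at the onset of replication, measured 6.25, 6.31 and 6.08 in NF and 4.92, 5.54 and 5.13 in N. Its NF arrays were close together and all above N. Its log2 change was 1.02 ± 0.18 (SE), or 2.02-fold (adjusted p = 0.0310, limma). Cks2, a small subunit that helps Cdk1 bind its substrates, measured 8.001, 7.997 and 8.33 in NF and 7.16, 7.37 and 7.24 in N. NF replicate 3 was the highest and the N arrays were tight. On average it changed by a log2 value of 0.85 ± 0.14 (SE), or 1.81-fold (adjusted p = 0.0290, limma). Cks2 had 3 probe sets under its symbol, and the remaining ones gave log2 changes of 1.04 (adjusted p = 0.0348) and 0.99 (adjusted p = 0.0297, limma). Whether each of them reads Cks2 itself or a near copy was not tested.

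Ccnf, Ccne2 and Cdk2 did not pass, although their groups did not overlap. Ccnf, a cyclin that acts as the substrate receptor of a ubiquitin ligase, measured 4.99, 4.75 and 4.42 in NF and 3.83, 4.05 and 4.23 in N (log2 change 0.68, adjusted p = 0.118, limma). Ccne2, the other E-type cyclin, measured 4.05, 3.99 and 3.94 in NF and 3.64, 3.64 and 3.40 in N (log2 change 0.43, adjusted p = 0.163, limma). The 95% interval of the change was 0.26 to 1.10 for Ccnf and 0.14 to 0.73 for Ccne2, so a zero change lay outside both before adjustment. All N arrays of Ccne2 were below the median of all probe sets (3.7), so its N signal may not be above background. Cdk2, the partner of E- and A-type cyclins, measured 6.13, 5.93 and 6.26 in NF and 4.89, 5.56 and 5.90 in N (log2 change 0.66, adjusted p = 0.292, limma). Its N arrays differed from each other by more than the groups differed, and without N replicate 1 the change was 0.38.

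The kinases and phosphatases that act on CDKs also lay above N throughout. All 6 were measured, 2 were higher, 0 were lower and 4 did not pass, every NF array was above every N array for all 6, and the median log2 change was 0.89. The 2 genes that passed act on Cdk1 in opposite ways. Wee1, the kinase that puts the inhibitory phosphate on Cdk1, measured 7.92, 7.59 and 8.13 in NF and 6.38, 6.76 and 6.35 in N. NF replicate 2 was the lowest of its group and still above all N arrays. Wee1 thus had a log2 change of 1.39 ± 0.18 (SE), or 2.61-fold (adjusted p = 0.0139, limma). Cdc25c, a phosphatase that removes that phosphate, measured 4.58, 4.23 and 4.72 in NF and 3.18, 3.41 and 3.77 in N. This was a low signal, with all N arrays near the median of all probe sets (3.7) or below it. The log2 change was 1.06 ± 0.20 (SE, adjusted p = 0.0376, limma), and no fold is given because the N signal may not be above background.

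**Figure D2:**
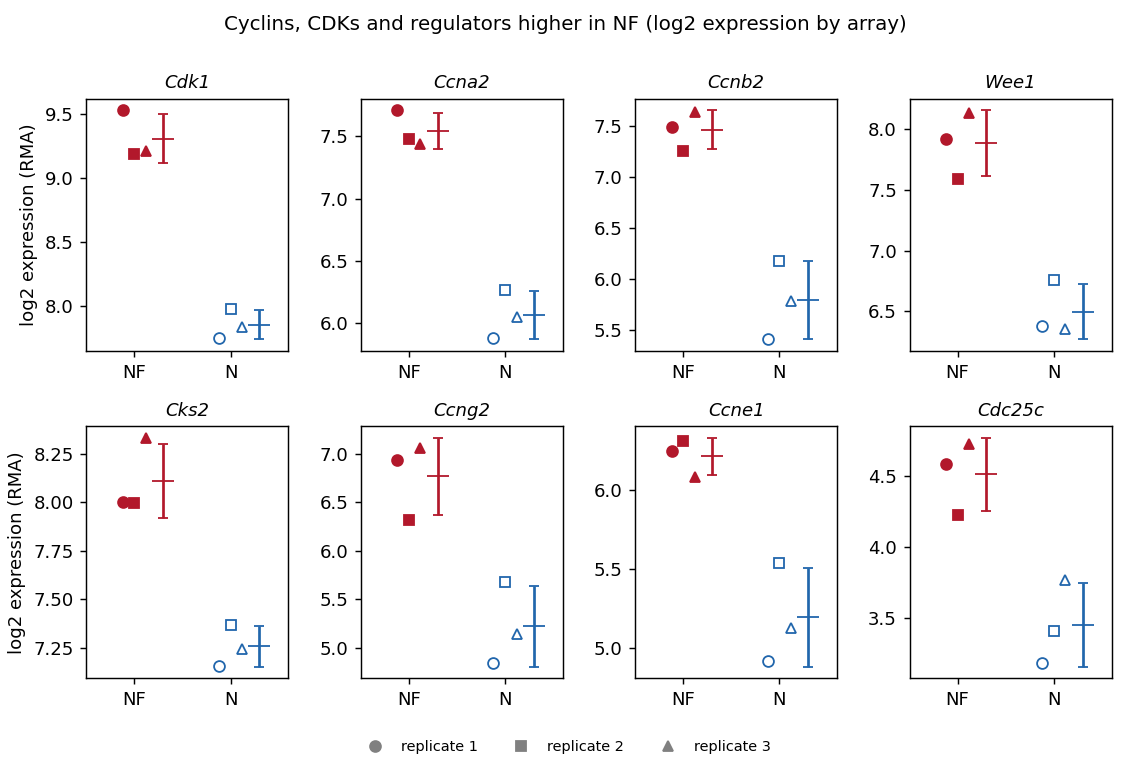
Log2 expression (vertical axis, a separate range for each gene) of the 8 members that were higher in NF, with NF at left in red and N at right in blue. Symbols are single arrays by replicate number, and bars are the mean ± SD of 3 arrays. For each gene the lowest NF array lies above the highest N array.

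Cdc25b, which triggers the first activation of Cdk1, had the largest change among those that did not pass, and a single array decided its call. It measured 7.46, 7.33 and 7.70 in NF and 5.07, 6.78 and 6.74 in N, where N replicate 1 was far below the other N arrays. The log2 change was 1.30 ± 0.42 (SE, adjusted p = 0.205, limma). Without N replicate 1 the change was smaller, 0.74, and passed the test (adjusted p = 0.0212, limma, within 0.0183 to 0.581 over all alternatives). Cdkn3, a phosphatase that removes the activating phosphate of CDKs, measured 6.40, 6.27 and 6.92 in NF and 6.09, 5.67 and 5.75 in N. Its log2 change was 0.69 (adjusted p = 0.150, limma), and 0.82 without N replicate 1 (adjusted p = 0.0417, limma, within 0.0266 to 0.454 over all alternatives). Here N replicate 1 was the highest N array, unlike in Cdc25b. Cdc25a, the phosphatase that acts on Cdk2 at the start of S phase, and Pkmyt1, the membrane-bound relative of Wee1, had log2 changes of 0.72 (adjusted p = 0.281) and 0.39 (adjusted p = 0.283, limma). The change of Cdc25a was 0.40 without N replicate 1.

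D-type cyclins and their kinases had no common direction. Of the 5 listed, 3 were measured and 0 passed the test, with a median log2 change of -0.03. Ccnd1, the cyclin that links mitogen signals to Cdk4, measured 7.52, 9.59 and 6.76 in NF and 8.59, 8.89 and 9.17 in N. NF replicate 2 was the highest of all 6 arrays while the other NF arrays were the lowest, so the NF spread (SD 1.47) was far wider than the N spread (SD 0.29). The log2 change was -0.93 ± 0.62 (SE, 95% interval -2.36 to 0.50, adjusted p = 0.599, limma). Without NF replicate 2 it was -1.75 (adjusted p = 0.0378, limma, within 0.00449 to 0.904 over all alternatives).

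Ccnd2 measured 10.23, 10.17 and 10.25 in NF and 9.69, 10.48 and 10.56 in N. The NF arrays fell inside the range of the N arrays. The log2 change was -0.03 (95% interval -0.54 to 0.49, adjusted p = 0.977, limma), and -0.30 without N replicate 1, which was the lowest array. Cdk4, which phosphorylates the retinoblastoma protein, was among the strongest signals of the list, at 11.51, 11.45 and 11.51 in NF and 10.87, 11.27 and 11.13 in N. Its groups did not overlap, yet the log2 change of 0.40 (95% interval 0.07 to 0.72) did not pass (adjusted p = 0.256, limma).

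**Figure D3:**
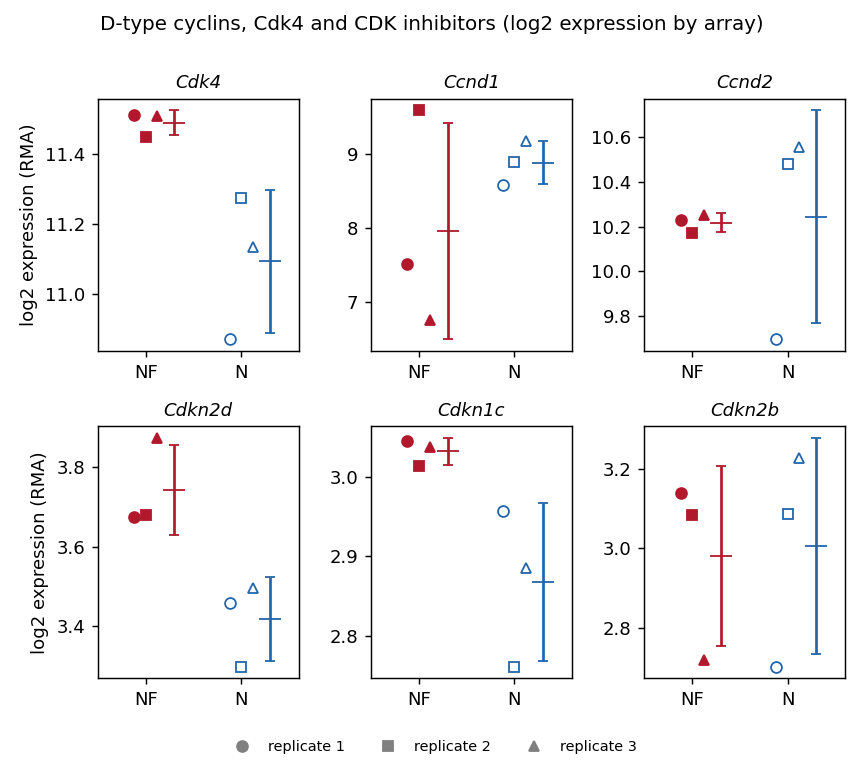
Log2 expression (vertical axis, a separate range for each gene) of Cdk4, Ccnd1, Ccnd2 and the 3 measured CDK inhibitors, with NF at left in red and N at right in blue. Symbols are single arrays by replicate number, and bars are the mean ± SD of 3 arrays. The Ccnd1 value of NF replicate 2 (9.59) lies above all N arrays, while those of NF replicates 1 and 3 (7.52 and 6.76) lie below them.

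Of the 6 CDK inhibitors listed, 3 were measured, 0 passed the test and all 3 were below the median of all probe sets. Cdkn2d, an INK4 inhibitor of Cdk4 and Cdk6, measured 3.67, 3.68 and 3.87 in NF and 3.46, 3.30 and 3.50 in N (log2 change 0.32, 95% interval 0.03 to 0.62, adjusted p = 0.323, limma). Cdkn1c, the imprinted CIP/KIP inhibitor, measured 3.05, 3.01 and 3.04 in NF and 2.96, 2.76 and 2.89 in N (log2 change 0.17, 95% interval -0.11 to 0.44, adjusted p = 0.635, limma). The groups of both genes did not overlap, but the differences were small at signals this dim. Cdkn2b, an INK4 inhibitor, measured 3.14, 3.08 and 2.72 in NF and 2.70, 3.09 and 3.23 in N (log2 change -0.02, 95% interval -0.45 to 0.40, adjusted p = 0.972, limma), and its groups overlapped. The change was -0.18 without N replicate 1. The inhibitors Cdkn1a and Cdkn1b, which respond most directly to stress and growth arrest, were among the genes without a usable probe set, so this group was covered only in part.

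Of the 12 cyclins and CDKs of transcription listed, 10 were measured, 0 passed, and the median log2 change was 0.07. The 95% intervals of Ccnt1 (-0.25 to 1.11), Cdk12 (-1.14 to 0.21) and Cdk13 (-0.49 to 0.81) were wide enough to hold sizeable changes. Ccnt2, a partner of Cdk9 in the elongation factor P-TEFb, was the only one of them whose groups did not overlap, at 7.52, 7.53 and 7.33 in NF and 7.88, 7.71 and 7.75 in N (log2 change -0.32, adjusted p = 0.321, limma). The other P-TEFb genes, Ccnt1 and Cdk9, had log2 changes of 0.43 (adjusted p = 0.606) and -0.29 (adjusted p = 0.634, limma). Ccnh and Cdk7, which form the CDK-activating kinase of the initiation factor TFIIH, had 0.14 and -0.10. The Cdk7 value came from a probe set below the median of all probe sets, and its brighter probe set gave -0.11. Ccnk and Cdk13, which act in elongation, had 0.12 and 0.16. Ccnc, the cyclin of the Mediator kinase module, had 0.02, and Ccnl2, a cyclin linked to splicing, 0.33. Cdk12, the other partner of Ccnk, had -0.47 (adjusted p = 0.571, limma) from a probe set at 4.66, 4.80 and 4.87 in NF and 5.998, 4.93 and 4.81 in N. Its N replicate 1 stood apart again, and the brighter of its 2 probe sets gave a change of 0.14. Without N replicate 1 the log2 change was 0.16 for Ccnt1, -0.49 for Cdk9, -0.17 for Cdk12 and -0.35 for Cdk7. The Cdk12 and Cdk7 values there came from their brighter probe sets. The change turned to -0.06 for Ccnh, -0.01 for Ccnk, -0.19 for Cdk13 and -0.02 for Ccnc, and none of these genes passed without that array.

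Of the 10 other cyclins and CDKs, 9 were measured, 1 was higher, 0 were lower and 8 did not pass, with a median log2 change of -0.02. The gene that passed was Ccng2, an atypical cyclin known for its high level in cells that leave the cycle. Ccng2 measured 6.93, 6.31 and 7.05 in NF and 4.85, 5.67 and 5.14 in N. All NF arrays were higher, and the lowest NF array (replicate 2) and the highest N array (replicate 2) came closest. The log2 change was 1.54 ± 0.26 (SE), or 2.92-fold (adjusted p = 0.0290, limma). Its relative Ccng1, a target of p53, measured 9.63, 9.52 and 9.77 in NF and 10.08, 9.84 and 9.86 in N (log2 change -0.29, 95% interval -0.60 to 0.02, adjusted p = 0.416, limma). The NF arrays of Ccng1 all lay below N, unlike those of Ccng2, and the difference between the genes was not tested.

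Ccni, a cyclin I gene most abundant in tissues that do not divide, measured 8.90, 8.83 and 8.91 in NF and 8.37, 8.45 and 8.54 in N (log2 change 0.43, adjusted p = 0.132, limma), and its other probe set gave 0.38 (adjusted p = 0.198, limma). Cdk5, the CDK best known from neurons, measured 6.81, 6.67 and 6.53 in NF and 6.11, 6.17 and 6.33 in N (log2 change 0.47, adjusted p = 0.145, limma). Neither gene overlapped between groups and neither passed. Among the PCTAIRE kinases, Cdk18 measured 6.10, 6.31 and 5.57 in NF and 6.33, 6.38 and 6.86 in N (log2 change -0.53, adjusted p = 0.366, limma), and Cdk16 and Cdk17 had log2 changes of 0.16 and -0.07. The Cdk18 groups did not overlap, but the gap between NF replicate 2 and N replicate 1 was narrow. Ccnj and Ccna1, the A-type cyclin of the germ line, had log2 changes of -0.09 and -0.02, and Ccna1 was below the median of all probe sets. Without N replicate 1 the changes were 0.08 for Cdk16, -0.18 for Cdk17, -0.20 for Ccnj and -0.04 for Ccna1.

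Averaged over the genes of a role, each array was set against the mean of the 6 arrays. For the S phase and mitosis genes the deviations were 0.60, 0.45 and 0.50 in NF and -0.73, -0.34 and -0.47 in N. For the kinases and phosphatases of CDKs they were 0.47, 0.32 and 0.60 in NF and -0.79, -0.29 and -0.30 in N. In both roles N replicate 1 was the lowest array, and NF remained above each N array without it. For the D-type group they were -0.23, 0.42 and -0.47 in NF and -0.26, 0.23 and 0.31 in N, and the groups overlapped. For the inhibitors they were 0.11, 0.08 and 0.04 in NF and -0.14, -0.13 and 0.03 in N, for the transcription genes -0.09, -0.05 and 0.14 in NF and -0.15, -0.02 and 0.16 in N, and for the other members 0.15, 0.08 and 0.04 in NF and -0.22, -0.09 and 0.05 in N. For the inhibitors every NF array lay above every N array, by a small margin, and for the transcription genes and the other members the groups overlapped.

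**Figure D4:**
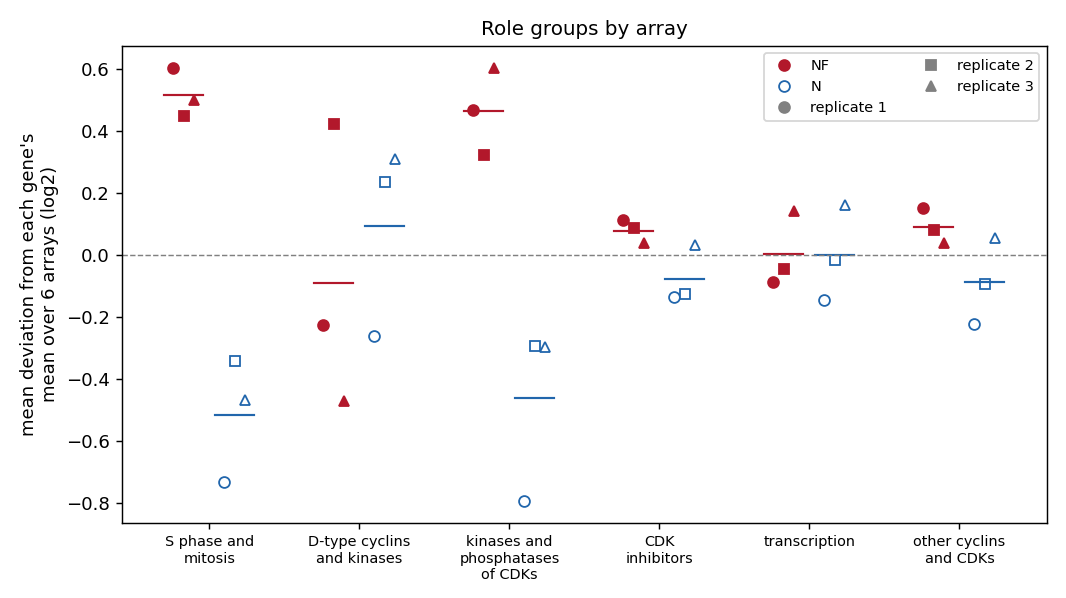
Mean deviation of each role's genes from their mean over the 6 arrays (vertical axis, log2), with NF in red at left and N in blue at right for each role. Symbols are single arrays by replicate number and horizontal lines are group means. NF and N separate widely for the S phase and mitosis genes and for the kinases and phosphatases of CDKs, and overlap for the transcription genes.

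The wider pathway was read from a list of 52 genes that act with CDKs, also chosen with earlier results of these data known. They were E2F factors and retinoblastoma proteins, DREAM subunits, ubiquitin ligase parts and further CDK-related genes, and 45 were measured. Of these, 5 were higher (11.1%, beside 1.83% of all genes), 1 was lower (beside 0.72% of all genes) and 39 did not pass (limma). All NF arrays lay above all N arrays for 37.8% of them, beside 10.5% of all genes, and below them for 13.3%, beside 9.7% of all genes. Their median log2 change was 0.23, beside -0.03 over all genes. E2f1, the factor that the retinoblastoma proteins restrain, had a log2 change of 0.94 (adjusted p = 0.0276), and Rbl1, a retinoblastoma relative, 1.17 (adjusted p = 0.0447, limma). Cdc20, the mitotic activator of the anaphase-promoting complex, measured 7.67, 7.32 and 7.45 in NF and 5.68, 6.30 and 5.85 in N (log2 change 1.54, adjusted p = 0.0110, limma). Plk1, a mitotic kinase, measured 7.79, 7.45 and 7.935 in NF and 5.07, 6.39 and 6.39 in N (log2 change 1.77, adjusted p = 0.0443, limma). Cdk19, the Mediator kinase related to Cdk8, had a log2 change of 1.19 (adjusted p = 0.0350, limma). N replicate 1 was the lowest N array for all 5 higher genes, and far below the other N arrays for Plk1. All 5 calls were kept without it. Myc, a transcription factor that promotes growth, was the gene that fell, at 8.38, 9.27 and 8.48 in NF and 9.90, 9.84 and 10.43 in N (log2 change -1.35, adjusted p = 0.0447, limma). Its NF arrays all lay below N, with NF replicate 2 the nearest. Without NF replicate 1 or NF replicate 3, 0 of these partners passed in either direction, where 1 and 2 of all genes were higher. The 5 higher became 1 without NF replicate 2 (0.899% of all genes), 1 without N replicate 3 (0.625%) and 9 without N replicate 1 (2.93%). The call on Myc was also lost without N replicate 2 or N replicate 3.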

How the data were processed

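Total RNA of NIH3T3 cells was hybridised to 6 Affymetrix arrays. The authors made the deposited log2 values with RMA in the R/Bioconductor package oligo, whose version, like the set of arrays normalized together and the genome build, is not given in the sources used here, and discarded probe sets without an Entrez gene. RMA as a method equalizes array distributions, but those of the 6 deposited arrays were not equal (SD 2.19 to 2.42), and array signals tend to compress large differences. Depth does not apply to arrays, and 3 arrays per group limit the precision.

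Of 22035 probe sets, the 18197 paired with 1 symbol were tested, 1260 had several symbols and 2578 were not listed. Of the tested probe sets, 18192 had their symbol in the RefSeq table. They stand for 16797 genes, and the 708 genes with several probe sets were represented by that with the lowest p. NF and N were compared in R 4.3.3 with limma 3.58.1 (lmFit and eBayes without trend or robust estimation, prior degrees of freedom 4), and the p-values of the tested probe sets were adjusted together by the Benjamini-Hochberg method (threshold 0.05). The procedure was tested on simulated data. The members and all lists were chosen with earlier results of these data known. Every member is named, and the values of all 6 arrays are given for members with an adjusted p under 0.05, the CDK inhibitors, the D-type cyclins and kinases, and the 6 others with the lowest p. Values of Cdk2, Cdk12, Cdk18, Ccnt2 and Ccng1 were added after they were seen. Partners with an adjusted p under 0.05 are named. Promoter windows are RefSeq sequence of GRCm38.p6, and 36 of the 47 listed genes had one. Ccna2, Wee1, Ccne2, Cdkn1c, Ccnd1, Ccnd2, Cdc25c, Pkmyt1, Cdk5, Cdk17 and Ccnh were not matched.

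The alternatives tried were a block for the replicate number, further quantile normalization, arrays centred on their medians, removal of dim probe sets (mean under 3.7), the probe set with the highest mean, trend and robust estimation, the per-gene test of the study's general statistics section (its array comparison used limma), and leaving out arrays singly or N replicate 1 with NF replicate 2.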

Additional observations from a re-analysis of the deposited data

How the results depend on the processing

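The 8 members higher in NF were the same 8 after quantile normalization, centring, removal of dim probe sets (35 members tested), the probe set with the highest mean, and trend and robust estimation. The per-gene test of the study's general statistics section, which was not its array test (limma), gave 0 members higher after adjustment and 17 without it. It gave 0 and 1 members lower, 0 and 9 partners higher, and 0 and 3 partners lower. Over all genes that test gave 1 higher and 0 lower after adjustment, and 1000 (5.95%) higher and 861 lower without it. With the replicate number as a block, 2 members (Cdk1 and Ccna2) and 0 partners were higher and 0 partners lower. Same-numbered arrays had deviations correlated at -0.0748, -0.0780 and -0.0736, and 0 of the 6 arrays correlated best with its own number. With 3 arrays per group such correlations cannot decide whether the numbers pair the cultures. Leaving out single arrays gave 0 to 10 members higher, 0 to 1 lower (Ccnd1, without NF replicate 2), 0 to 9 partners higher and 0 to 1 lower. Over all genes these fits gave 1 to 492 higher and 0 to 430 lower. Partners higher numbered 1 without NF replicate 2, 9 without N replicate 1 and 1 without N replicate 3, beside 5 with all arrays, and Myc was lost without N replicate 2 or N replicate 3 too. Without N replicate 1 and NF replicate 2, 10 members were higher, 1 (Ccnd1, log2 change -1.90) lower and 9 partners higher. Over all genes that fit gave 541 (3.22%) higher and 497 lower. The cause was not tested.

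The median change of the members ranged from 0.23 to 0.40. Over all genes, 307 were higher and 121 lower, against 497 and 373 after quantile normalization, 305 and 173 after centring, 492 and 430 without N replicate 1, and 63 and 17 with the block. Members that did not pass changed sign in some settings. Leaving out single arrays gave -0.30 to 0.13 for Ccnd2, -0.18 to 0.11 for Cdkn2b, -0.06 to 0.26 for Ccnh, -0.0063 to 0.26 for Ccnk, -0.35 to 0.095 for Cdk7, -0.19 to 0.36 for Cdk13, -0.14 to 0.14 for Ccnc, -0.20 to 0.11 for Ccnj, -0.18 to 0.052 for Cdk17 and -0.083 to 0.014 for Ccna1. Quantile normalization gave 0.034 for Cdkn2b, -0.12 for Ccnc and 0.049 for Ccna1, centring gave -0.014 for Ccnc, and the probe set with the highest mean 0.14 for Cdk12. Without N replicate 1 and NF replicate 2 the change was -0.10 for Ccnh, -0.054 for Ccnk, -0.095 for Cdk13 and -0.021 for Cdk16, beside -0.23 for Cdkn2b, -0.43 for Cdk7 and -0.22 for Ccnj, which kept their sign. Dim signal limits the 5 members below the median probe set, of which Cdk7 also had a brighter probe set.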

Other observations

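Some genes that act with CDKs did not pass the test, although their groups did not overlap. Of the 45 partners measured, NF arrays lay all above N for 17 and all below it for 6. The latter were Myc, which passed, and Ccnb3, Mnat1, Cdk10, Cdk2ap2 and Cdkn2aip, which did not. Of those above N that did not pass, 5 are given here. E2f7, a repressor among the E2F factors, measured 6.28, 5.87 and 6.34 in NF and 4.22, 5.40 and 4.82 in N (log2 change 1.35, adjusted p = 0.0537, limma). Foxm1, a factor that activates genes of mitosis, measured 6.18, 6.36 and 6.36 in NF and 4.34, 5.69 and 5.48 in N (log2 change 1.13, adjusted p = 0.141, limma), where N replicate 1 was the lowest. Lin54, the DREAM subunit that binds the CHR, measured 6.95, 6.62 and 6.91 in NF and 6.34, 6.09 and 5.94 in N (log2 change 0.71, adjusted p = 0.0673, limma). Tfdp1 and Tfdp2, the binding partners of E2F factors, had log2 changes of 0.69 (adjusted p = 0.0912) and 0.80 (adjusted p = 0.0736, limma). Without N replicate 1, E2f7, Foxm1, Lin54 and Tfdp2 passed the test, where 2.93% of all genes were higher. E2f7 and Foxm1 also passed after quantile normalization, where 2.96% of all genes were higher. The genes of this paragraph were chosen after their values were seen.

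Rb1 itself measured 6.15, 5.78 and 6.03 in NF and 5.78, 6.01 and 5.98 in N (log2 change 0.06, 95% interval -0.27 to 0.40, adjusted p = 0.905, limma). Cdkn2a, whose locus NIH3T3 cells are known to have lost, measured 3.52, 3.45 and 3.84 in NF and 3.69, 3.66 and 3.65 in N (log2 change -0.06, adjusted p = 0.905, limma).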
